A study of Mus musculus with 18 samples.

Results

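Smndc1 knockdown cells that had switched on an insulin promoter reporter were compared with cells that carried an empty vector and the same reporter. The comparison takes 8 of the 18 libraries of the series, chosen by their labels alone: 4 of shSmndc1_RIP_pos (called positive cells here) and 4 of EV_RIP. All cells were AlphaTC1, a mouse line of pancreatic alpha cells that came from tumours of transgenic mice carrying a viral T antigen, and all carried RIP-mCherry, a red fluorescent protein driven by the rat insulin promoter. Positive cells also carried an shRNA against Smndc1 and were sorted for mCherry, and EV_RIP cells carried an empty vector. A further group, shSmndc1_RIP_neg (negative cells, 4 libraries), had the same shRNA and was sorted for the absence of mCherry. A separate experiment without the reporter (EV and shSmndc1, 3 libraries each, taken 5 days after transduction) is used below only as a second reading of the knockdown. The labels give no day for the reporter experiment, do not say that EV_RIP cells went through the sorter, and do not say that replicates were separate cultures. The p-values therefore speak only of the spread among the deposited libraries, and that spread may be technical. The line is a single cell line, and the number of hairpins behind the shRNA label is not given.

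SMNDC1, also known as SPF30, is a nuclear protein with a Tudor domain that takes part in assembling the spliceosome, the complex that removes introns from pre-mRNA. Alpha cells make glucagon from the Gcg transcript, and PCSK2 is one of the convertases that cut its precursors. Beta cells make insulin, which mice encode in the related genes Ins1 and Ins2, and they use Pdx1, Mafa and Nkx6-1 to drive these genes. Because positive cells were picked by an insulin promoter, their insulin transcripts were bound up with the sort. Other genes were not picked directly, but those that vary with insulin promoter activity may be bound up with it too. This was not tested.

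Total counts ran from 49345067 to 103048766 in EV_RIP and from 34045268 to 48138634 in positive cells, so every positive library was shallower than every control (two-sided exact permutation p = 0.0286, the smallest that 4 against 4 libraries can give). Other library measures moved with the groups. Malat1, a nuclear long RNA, had 109 to 286 CPM (counts scaled to a common library size) in EV_RIP against 287 to 670 CPM in positive cells, and Rn7sk, a small nuclear RNA without a poly(A) tail, had 5.24 to 14.2 CPM in EV_RIP against 2.44 to 4.68 CPM in positive cells (exact permutation p = 0.0286 each). The mitochondrial share was 0.587% in EV_RIP replicate 1 and 2.34% to 4.60% in the other 7 libraries. The part of these differences in the results below was not tested.

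Smndc1 itself (ENSMUSG00000025024, GRCm38 chromosome 19, 53379390 to 53390578) had 37.6, 54.9, 39.3 and 46.3 CPM in EV_RIP against 16.6, 22.4, 16.0 and 25.2 CPM in positive cells. The groups did not overlap, and the mean was 2.22-fold lower in positive cells (log2 fold change -1.15, SE 0.20, edgeR adjusted p = 0.00384). Of 22 tested genes of the SMN complex and snRNP assembly, Smndc1 was the only one called. Over the whole transcriptome, edgeR's quasi-likelihood test with Benjamini-Hochberg adjustment at 0.05 called 3286 of 18897 genes (17.4%), 1600 of them higher (8.47%) and 1686 lower (8.92%) in positive cells. The CPM ranges of the groups did not overlap for 4427 genes (23.4%). At an unadjusted p under 0.05 there were 3176 higher and 3235 lower genes, and the median log2 fold change over all tested genes was 0.0011. Without positive replicate 2 there were 646 higher and 612 lower calls, without EV_RIP replicate 1 there were 755 and 810, and without EV_RIP replicate 3 or positive replicate 3 or 4 between 889 and 1064 in each direction.

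**Figure D1:**
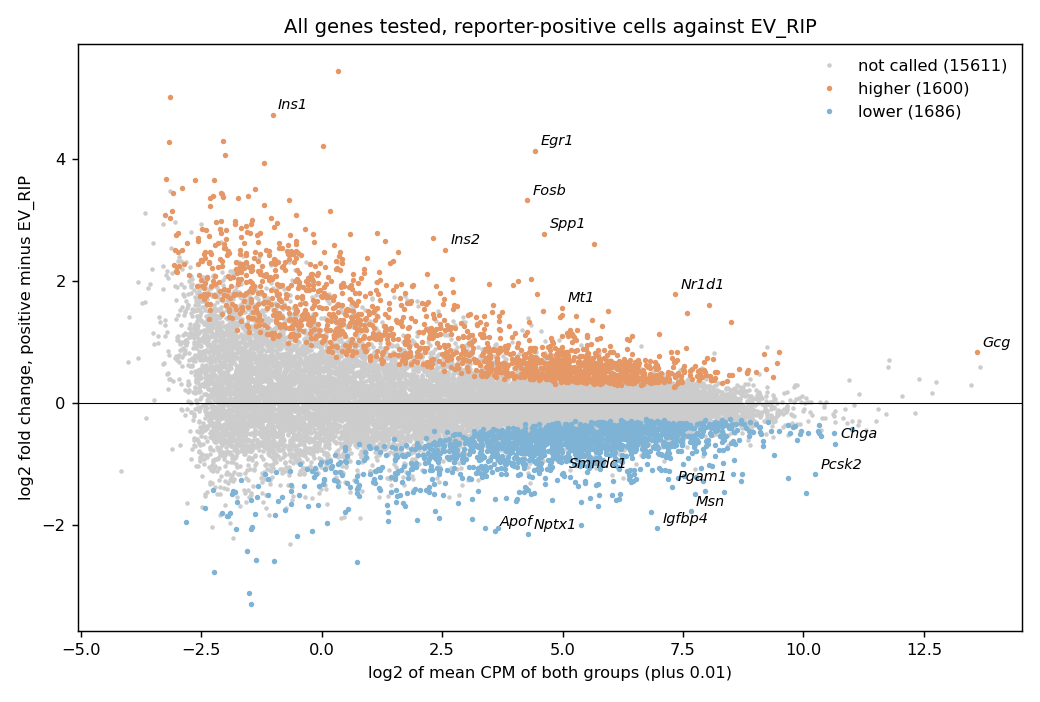
Each point is 1 of 18897 genes tested, with the log2 of the mean CPM of both groups on the x axis and the log2 fold change of positive cells against EV_RIP on the y axis. Orange points are the 1600 genes called higher and blue points the 1686 called lower; Egr1, at a log2 fold change of 4.13, stands highest among the labelled genes above 5 CPM, and Gcg lies farthest to the right of the labelled genes.

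Insulin transcripts rose in positive cells, starting close to 0. Ins2 (ENSMUSG00000000215, chromosome 7, 142678656 to 142743381) had 2.06, 3.39, 1.00 and 0.518 CPM in EV_RIP against 13.7, 13.5, 6.90 and 6.12 CPM in positive cells, resting on 25 to 345 and 213 to 651 counts per library. Every positive library lay above every control, and the mean was 5.69-fold higher (log2 fold change 2.51, SE 0.51, edgeR adjusted p = 0.00701). Ins1 (chromosome 19, 52264297 to 52265476) had 2, 6, 1 and 0 counts in EV_RIP against 11, 47, 6 and 74 counts in positive cells. In CPM these groups were apart, at no more than 0.0589 in EV_RIP and at least 0.164 in positive cells, and positive replicates 2 and 4 held most of the counts. The fitted log2 fold change of Ins1, 4.72 (SE 1.13, edgeR adjusted p = 0.0142), is set in part by the prior count because the controls hold so few reads. Reads of the near-identical Ins1 and Ins2 could be split between them, and the tables do not show whether the reporter's transcript carries insulin sequence. In bulk libraries a larger share of insulin-expressing cells and more insulin RNA per cell cannot be told apart.

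The promoter of Ins1 is shown because the reporter reads insulin promoter activity. In the RefSeq window of GRCm38.p6 (250 bases before to 50 after the gene start, plus strand, chr19:52264047-52264346), capitals mark GCCATCTG, the core of the insulin E box that basic helix-loop-helix factors such as NEUROD1 are known to bind. The 8-letter motif was searched on both strands.
Ins1: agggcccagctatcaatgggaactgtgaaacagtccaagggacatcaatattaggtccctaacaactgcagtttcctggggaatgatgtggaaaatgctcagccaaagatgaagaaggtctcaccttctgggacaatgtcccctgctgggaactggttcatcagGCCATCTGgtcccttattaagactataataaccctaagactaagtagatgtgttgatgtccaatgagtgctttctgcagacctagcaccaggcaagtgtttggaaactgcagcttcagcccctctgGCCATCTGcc
It occurs 2 times here, starting at positions -86 and 40 relative to the gene start (0 is its first base), and 1.32% of the 32851 mouse windows in the table hold at least 1 match. A match is a description of the sequence. Transcripts of Neurod1 itself stood at 91.9 ± 22.4 CPM in EV_RIP against 109 ± 22.4 CPM in positive cells (SD, n = 4), a log2 fold change of 0.25 that did not pass (edgeR adjusted p = 0.383).

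Genes of the beta cell list moved in both directions. Of its 22 genes 14 had enough counts to be tested, and 5 were higher and 2 lower. Among all genes 8.47% were higher and 8.92% lower, and the list's median log2 fold change was 0.23. Ins1 and Ins2 are among the 5 higher genes and were bound up with the sort, so the higher count is in part set by it. Iapp, which encodes amylin, the peptide co-secreted with insulin, had 0.271, 0.275, 0.211 and 0 CPM in EV_RIP against 1.18, 1.15, 0.790 and 0.546 CPM in positive cells (log2 fold change 2.23, SE 0.65, edgeR adjusted p = 0.0326). Mafa, an insulin gene activator of mature beta cells, had 1.13, 1.47, 1.05 and 0.994 CPM in EV_RIP against 2.06, 2.01, 3.49 and 2.39 CPM in positive cells, again without overlap (1.09, SE 0.25, edgeR adjusted p = 0.0125). Nnat, which encodes neuronatin, a small proteolipid of the endoplasmic reticulum, rose from 0.585 ± 0.193 to 2.06 ± 0.253 CPM (SD, n = 4; log2 fold change 1.8, edgeR adjusted p = 0.00429).

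Slc30a8, the granule zinc transporter that beta cells use to crystallise insulin, went the other way. It had 395, 278, 431 and 369 CPM in EV_RIP against 265, 175, 182 and 186 CPM in positive cells, with positive replicate 1 just below the lowest control (log2 fold change -0.87, SE 0.25, edgeR adjusted p = 0.0327). Prlr, the prolactin receptor, fell from 145 ± 67.1 to 72.4 ± 17.5 CPM (-0.997, edgeR adjusted p = 0.0403). Pdx1 had 0 counts in EV_RIP against 1 count in all positive libraries together, and Slc2a2, the beta cell glucose transporter, had 11 and 36 counts, so neither could be tested. Nkx6-1, which beta cells use to hold their identity, was already at 58.2 ± 9.32 CPM in EV_RIP and stood at 66.6 ± 12.9 CPM in positive cells (edgeR adjusted p = 0.449). Ins1, Ins2, Mafa and Nnat kept their calls without each library in turn. Iapp lost its call without EV_RIP replicate 1 or 3 or without positive replicate 1, 2 or 3 (edgeR adjusted p up to 0.0901), and Slc30a8 and Prlr without EV_RIP replicate 1, 3 or 4 or positive replicate 2, 3 or 4 (up to 0.0959 and 0.125).

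Glucagon was not lost: Gcg (ENSMUSG00000000394, chromosome 2, 62474530 to 62483650) rose. It had 8505, 11049, 10096 and 6386 CPM in EV_RIP against 15403, 19422, 14369 and 14754 CPM in positive cells. The groups did not overlap, and the mean was 1.77-fold higher (log2 fold change 0.83, SE 0.18, edgeR adjusted p = 0.00978). Per length, in the deposited FPKM, Gcg was the gene of rank 2 in every positive library, at 14654 ± 2199 FPKM (SD, n = 4), and of rank 2 to 8 in EV_RIP, at 8206 ± 1862 FPKM. Ins2 stood at 7.65 ± 3.14 FPKM in positive cells and 1.32 ± 0.964 FPKM in EV_RIP. The ratio of Gcg to Ins2 FPKM was 4969, 3936, 12126 and 14879 in EV_RIP against 1355, 1732, 2513 and 2907 in positive cells. The ratio was lower in every positive library, and glucagon transcripts still exceeded those of Ins2 at least 1355 to 1 in the deposited FPKM of each of them.

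**Figure D2:**
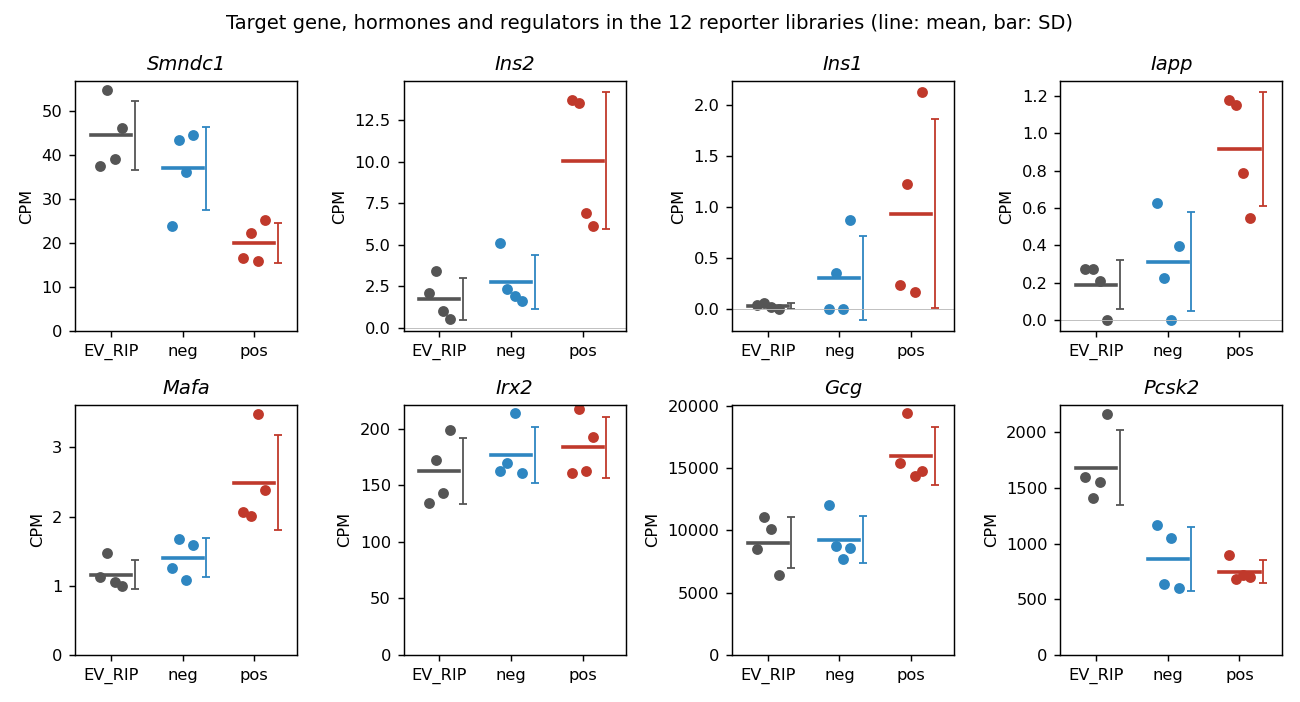
CPM of Smndc1, the hormone genes and 3 regulators or processing enzymes in the 12 reporter libraries; each point is a library, the line is the group mean and the bar the SD (n = 4), with neg and pos for the sorted knockdown cells. Ins2, Iapp, Mafa and Gcg were higher in all 4 positive libraries than in all 4 of EV_RIP, and Smndc1 and Pcsk2 lower.

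Of the 22 alpha cell genes 16 were tested, and 5 were higher and 1 lower (8.47% and 8.92% of all genes; median log2 fold change 0.28). Well above 0 in both groups were the alpha cell factors Irx1, at 138 ± 23.1 and 114 ± 15.8 CPM, and Irx2, at 162 ± 29.1 and 183 ± 26.6 CPM in EV_RIP and positive cells (SD, n = 4). Neither of them passed (edgeR adjusted p = 0.258 and 0.408). Pcsk2 had 1600, 1406, 1555 and 2166 CPM in EV_RIP against 897, 677, 718 and 700 CPM in positive cells. All positive libraries lay below all controls, and Pcsk2 fell by 1.17 on the log2 scale (SE 0.21, edgeR adjusted p = 0.00382) while its substrate's transcript rose.

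Sstr2, a somatostatin receptor of alpha cells, rose from 2.63 ± 0.653 to 5.07 ± 0.766 CPM (SD, n = 4; log2 fold change 0.95, edgeR adjusted p = 0.0314), and Fev, a serotonergic and endocrine precursor factor, from 0.152 ± 0.0806 to 0.575 ± 0.178 CPM (1.85, edgeR adjusted p = 0.0215). Single libraries decided both calls: Sstr2 lost its call without EV_RIP replicate 1 or 3 or positive replicate 1, 2 or 3, and Fev without EV_RIP replicate 1 or positive replicate 3 (edgeR adjusted p up to 0.0831 and 0.056). The count of higher alpha cell genes was 2 to 5 over the libraries left out, lowest without EV_RIP replicate 1 or positive replicate 3.

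Of the 21 transcription factors shared by endocrine cells 13 were tested. None was called higher (8.47% of all genes were), and Foxa2, a pioneer factor of endoderm, was the only one called lower (7.69%, near the 8.92% of all genes), at 37.4 ± 3.12 CPM in EV_RIP against 27.9 ± 1.42 CPM in positive cells (log2 fold change -0.42, edgeR adjusted p = 0.0268). That call was lost without any single library other than EV_RIP replicate 4 or positive replicate 3 (edgeR adjusted p up to 0.0701). Pax6, at 110 ± 18.9 and 96.9 ± 11.4 CPM, and Isl1, at 292 ± 40.4 and 274 ± 20.5 CPM in EV_RIP and positive cells, did not pass (edgeR adjusted p = 0.38 and 0.69). Foxa1, a relative of Foxa2, had 0.188, 0.461, 0.291 and 0 CPM in EV_RIP against 0.590, 1.20, 1.04 and 0.805 CPM in positive cells, without overlap, and did not pass either (1.86, SE 0.70, edgeR adjusted p = 0.0757). Rfx6 had 34 counts in EV_RIP against 36 in positive cells in total, and Neurog3, the endocrine progenitor factor, 0 and 7.

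Markers of other pancreatic and stromal cells were summed in each library. The 22 duct and progenitor markers had the highest sum, at 299 to 382 CPM in EV_RIP against 336 to 430 CPM in positive cells. The summed level of 13 acinar markers was 38.9 to 69.4 CPM in EV_RIP against 30.3 to 35.0 CPM in positive cells, with Ptf1a and Amy2b at 0 counts in both groups. Delta, PP and epsilon markers summed to 46.2 to 88.5 and 53.7 to 74.1 CPM, with Sst at 1 and 3 counts. Leukocyte markers summed to 16.0 to 21.0 and 21.3 to 26.2 CPM with Ptprc at 1 count in each group, endothelial markers to 1.20 to 2.10 and 1.83 to 4.31 CPM, and fibroblast markers to 3.54 to 12.7 and 12.2 to 20.02 CPM with Lum at 0 in both.

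Within those sums a few genes passed, 1 of 5 tested acinar markers among the lower (20%, against 8.92% of all genes). Pdgfra, a growth factor receptor of mesenchymal cells, rose from 1.65 ± 0.896 to 5.19 ± 0.548 CPM (SD, n = 4; log2 fold change 1.64, edgeR adjusted p = 0.0113). Col1a1, a fibrillar collagen chain, rose from 0.120 ± 0.101 to 0.538 ± 0.161 CPM (2.09, edgeR adjusted p = 0.0156). Esam, an endothelial adhesion molecule, stood at 0.115 ± 0.134 and 0.594 ± 0.209 CPM (2.17, edgeR adjusted p = 0.0381). Leaving out single libraries took the call from Col1a1 (positive replicate 2, adjusted p up to 0.057) and Esam (EV_RIP replicate 1, 3 or 4, positive replicate 2, 3 or 4, up to 0.109).

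Spp1, which encodes the secreted matrix protein osteopontin, marks duct cells. It was the only gene called among the 15 duct and progenitor markers tested (6.67% higher, near the 8.47% of all genes). It had 4.84, 10.7, 7.64 and 1.86 CPM in EV_RIP against 38.1, 72.0, 28.1 and 34.0 CPM in positive cells. The lowest positive library exceeded the highest control, and the mean was 6.81-fold higher (log2 fold change 2.77, SE 0.49, edgeR adjusted p = 0.00361). Of its exonic bases 18.8% lie in a predicted gene on the same strand, so its reads are uncertain to that extent. Sox9, a duct factor, stood at 6.80 ± 3.70 and 6.58 ± 0.712 CPM (SD, n = 4; edgeR adjusted p = 0.945), and the duct keratin Krt19 had 6 and 12 counts in total.

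Egr1 (ENSMUSG00000038418, chromosome 18, 34859823 to 34864984), an immediate-early transcription factor that cells make within minutes of a growth signal or stress, had the largest rise among genes of at least 5 CPM that the naming rule covers. It had 1.81, 2.76, 1.88 and 2.82 CPM in EV_RIP against 42.2, 31.5, 59.3 and 29.4 CPM in positive cells, a 17.5-fold higher level with a wide gap between the groups (log2 fold change 4.13, SE 0.31, edgeR adjusted p = 2.45e-05). All 31 immediate-early genes listed were tested, and 11 were higher (35.5%, against 8.47% of all genes) and 1 lower (3.23%, against 8.92%; median log2 fold change 0.74). Fosb, an AP-1 subunit, had 2.56, 3.49, 3.14 and 4.87 CPM in EV_RIP against 5.05, 42.2, 13.2 and 79.7 CPM in positive cells (3.31, SE 0.72, edgeR adjusted p = 0.00928). Positive replicate 1 barely exceeded the highest control, while positive replicates 2 and 4 were far above it. Fos, another AP-1 subunit, showed the same spread, with 9.05, 12.6, 11.2 and 23.8 CPM in EV_RIP against 22.2, 99.8, 45.5 and 176 CPM in positive cells, where replicate 1 fell inside the control range (2.6, SE 0.54, edgeR adjusted p = 0.0081).

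More even among the positive libraries was Zfp36, which encodes a protein that speeds the decay of short-lived mRNAs. It had 5.27, 7.47, 6.09 and 8.07 CPM in EV_RIP against 15.03, 32.0, 27.8 and 32.8 CPM in positive cells (log2 fold change 2.00, SE 0.27, edgeR adjusted p = 0.00132). Junb rose from 10.01 ± 1.33 to 34.5 ± 12.8 CPM (SD, n = 4; 1.78, edgeR adjusted p = 0.00837). Fosl2 was the 1 member that fell, from 151 ± 37.1 to 105 ± 4.16 CPM (-0.52, edgeR adjusted p = 0.0405), although its ranges overlapped, and lost its call without any 1 library other than EV_RIP replicate 2 (adjusted p up to 0.114). The number of higher members was 6 to 13 when each library was left out, lowest without EV_RIP replicate 1 or positive replicate 2.

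The same genes can be read in the unsorted experiment, which has its own controls. Egr1 rose there by 3.90 on the log2 scale (edgeR adjusted p = 0.00536) and Junb by 2.56 (edgeR adjusted p = 0.0336), but Fos stood at 0.09 (edgeR adjusted p = 0.87), Fosb of 0.30 (0.662) and Zfp36 of 0.48 (0.198). Negative cells, which share the EV_RIP controls with positive cells, had log2 fold changes of 3.14 for Egr1, 2.96 for Fos, 3.71 for Fosb and 1.75 for Zfp36 (edgeR adjusted p = 0.000616, 0.0112, 0.0124 and 0.00737). The difference between the effect in positive cells and that in unsorted cells was 2.50 for Fos (SE 0.75, unadjusted p = 0.0033 from edgeR), 3.00 for Fosb (SE 0.97, 0.00601) and 1.5 for Zfp36 (SE 0.39, 0.00108), and none of them passed the adjustment over 20036 genes (edgeR adjusted p = 0.998 each). The part of cell sorting in these values was not tested, and if EV_RIP cells were not sorted it cannot be told apart from the knockdown.

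The 15 higher genes of the naming rule, all without overlap, also held Speg, a kinase of the myosin light chain kinase family, which had 1.90, 0.805, 1.36 and 1.24 CPM in EV_RIP against 12.8, 9.44, 8.97 and 3.13 CPM in positive cells (log2 fold change 2.71, SE 0.41, edgeR adjusted p = 0.00188). Csf1, the gene of macrophage colony-stimulating factor, had 2.08, 4.34, 2.14 and 1.57 CPM in EV_RIP against 14.6, 6.64, 13.9 and 6.84 CPM in positive cells (2.03, SE 0.39, edgeR adjusted p = 0.00538). Begain, a postsynaptic scaffold interactor, rose from 7.95 ± 2.52 to 32.5 ± 12.9 CPM (SD, n = 4; 2.02, edgeR adjusted p = 0.000947). Pianp, Frat2, Hectd2, Npc1l1 and Wfikkn1 had log2 fold changes of 1.82, 1.8, 2.11, 2.47 and 1.8, and edgeR adjusted p of 0.00132, 0.00132, 0.00816, 0.0172 and 0.0176 in that order. Npc1l1, the intestinal cholesterol transporter, lost its call without EV_RIP replicate 1 or positive replicate 2, and Wfikkn1, a secreted protease inhibitor, without EV_RIP replicate 1 or 3 or positive replicate 2 (adjusted p up to 0.059 for each). Hectd2 shares 20.2% of its exonic bases with an antisense gene.

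**Figure D3:**
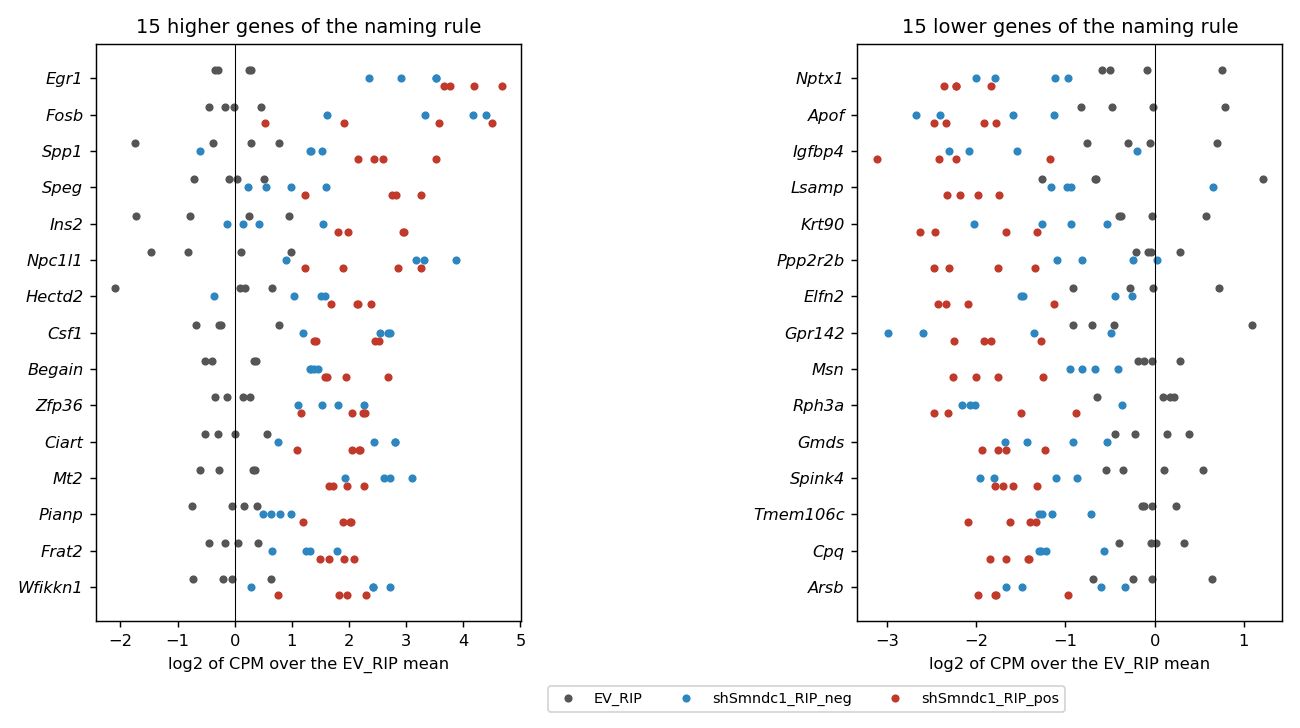
CPM of the 15 higher and the 15 lower genes of the naming rule in each of the 12 reporter libraries, as the log2 of the CPM over the EV_RIP mean (0.01 added to both), so that 0 is the control mean. The rule took only called genes whose EV_RIP (grey) and positive (red) libraries do not overlap; the blue points of the negative libraries, which the rule did not use, lie between them, among them or beyond them depending on the gene.

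Among the lower genes, Nptx1, which encodes neuronal pentraxin 1, a secreted synaptic protein, had 22.5, 21.1, 29.8 and 53.4 CPM in EV_RIP against 8.91, 6.15, 6.79 and 6.75 CPM in positive cells (log2 fold change -2.15, SE 0.30, edgeR adjusted p = 0.00134). The controls varied more than the positive libraries, and the groups stayed apart. Igfbp4, an insulin-like growth factor binding protein and one of the genes that mature beta cells keep off, had 328, 120, 195 and 164 CPM in EV_RIP against 89.8, 23.3, 43.2 and 37.9 CPM in positive cells (-2.05, SE 0.48, edgeR adjusted p = 0.0132). The list of genes repressed in beta cells moved in both directions, with 2 higher and 3 lower members of 9 tested. Pdgfra, which rose, is on that list too. Msn, which encodes moesin, a link between the membrane and actin, had 306, 275, 289 and 379 CPM in EV_RIP against 92.3, 78.3, 65.4 and 131 CPM in positive cells, the most abundant of the 15 lower genes (-1.77, SE 0.19, edgeR adjusted p = 0.000295). Its relative Ezr, ezrin, moved the other way, from 2.22 ± 0.914 to 7.04 ± 1.14 CPM (SD, n = 4; 1.65, edgeR adjusted p = 0.00286).

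Tmem106c, a transmembrane protein gene, fell from 104 ± 13.2 to 34.6 ± 7.62 CPM (-1.58, edgeR adjusted p = 0.000295), Ppp2r2b, a regulatory subunit of protein phosphatase 2A, from 13.8 ± 2.07 to 3.69 ± 1.35 CPM (-1.90, edgeR adjusted p = 0.00165), and Gmds, which makes GDP-fucose precursors, from 62.9 ± 15.9 to 20.4 ± 4.48 CPM (-1.62, edgeR adjusted p = 0.00192). The log2 fold changes of Apof, Krt90, Elfn2, Spink4, Cpq and Arsb lay between -2.10 and -1.57 (edgeR adjusted p of at most 0.00853), and 39.9% of the exonic bases of Arsb are shared with antisense genes. Lsamp (-2.04), Gpr142 (-1.77) and Rph3a (-1.64) also fell (edgeR adjusted p = 0.0174, 0.0322 and 0.0197). These 3 depended on single libraries: Lsamp lost its call without positive replicate 2, Gpr142 without EV_RIP replicate 1 or 4 or positive replicate 2, 3 or 4, and Rph3a without EV_RIP replicate 1 or 3 or positive replicate 2 or 4 (adjusted p up to 0.0588, 0.11 and 0.0663).

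Secretory granule and exocytosis genes fell as a set of calls: 30 of 32 were tested, 11 were lower and none higher, 36.7% of the tested members against 8.92% of all genes (median log2 fold change -0.36). Ptprn, the granule membrane protein IA-2, had 1102, 898, 1073 and 1542 CPM in EV_RIP against 574, 481, 496 and 425 CPM in positive cells (-1.22, SE 0.20, edgeR adjusted p = 0.00289). Chga, chromogranin A, a core granule protein, had 2096, 1998, 2024 and 1791 CPM in EV_RIP against 1354, 1185, 1364 and 1085 CPM in positive cells (-0.67, SE 0.13, edgeR adjusted p = 0.00538). Both fell in all 4 libraries below every control. Scg5, a chaperone of the convertase PCSK2, fell from 204 ± 58.6 to 86.4 ± 15.1 CPM (SD, n = 4; -1.24, edgeR adjusted p = 0.00337), and Cadps, a priming factor of dense-core vesicles, from 58.2 ± 9.70 to 32.4 ± 4.10 CPM (-0.84, edgeR adjusted p = 0.00651). Not every granule gene moved: Scg2, secretogranin II, stood at 1289.7 ± 134 and 1311 ± 157 CPM (edgeR adjusted p = 0.928). The number of lower members was 4 to 13 when each library was left out, lowest without positive replicate 2 or 4.

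The list of glycolytic enzymes and transporters also holds glycogen and glucose-6-phosphate enzymes. It had 9 lower and no higher entries among 28 tested (32.1% lower, against 8.92% of all genes, median -0.27). Aldoa was tested under more than 1 Ensembl identifier, and 1 of its entries is given below. Pgam1, phosphoglycerate mutase, had 275, 219, 208 and 193 CPM in EV_RIP against 80.2, 74.1, 79.9 and 112 CPM in positive cells (log2 fold change -1.37, SE 0.15, edgeR adjusted p = 0.000312). Gys2, the liver-type glycogen synthase, had 27.3, 26.6, 29.1 and 26.5 CPM in EV_RIP against 9.45, 11.0, 9.16 and 12.4 CPM in positive cells, with little spread in either group (-1.38, SE 0.15, edgeR adjusted p = 0.000265). Aldoa, aldolase A, fell from 1125 ± 173 to 739 ± 35.9 CPM (SD, n = 4; -0.61, edgeR adjusted p = 0.00621), and G6pc3, a glucose-6-phosphatase, from 112 ± 13.9 to 74.1 ± 7.85 CPM (-0.60, edgeR adjusted p = 0.0104). Leaving out single libraries gave 4 to 10 lower members, lowest without EV_RIP replicate 1 or positive replicate 2.

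Cholesterol synthesis genes had 7 lower and no higher members among 23 tested (30.4% lower, against 8.92% of all genes, median -0.40). Tm7sf2, a sterol reductase, had 17.8, 11.4, 13.9 and 11.9 CPM in EV_RIP against 5.64, 4.08, 6.13 and 4.43 CPM in positive cells (-1.44, SE 0.22, edgeR adjusted p = 0.00192), and it shares 12.1% of its exonic bases with a neighbour on the same strand. Hsd17b7, a later enzyme of the pathway, fell from 51.2 ± 11.0 to 27.1 ± 5.75 CPM (SD, n = 4; -0.91, edgeR adjusted p = 0.00447), and Ebp, a sterol isomerase, from 146 ± 22.9 to 88.9 ± 9.04 CPM (-0.71, edgeR adjusted p = 0.00511). The count of lower members was 3 to 12 over the libraries left out, lowest without positive replicate 2.

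Metallothioneins, small zinc-binding proteins that cells make when free zinc or other metals rise, moved together. Mt1 had 18.01, 24.3, 12.4 and 9.75 CPM in EV_RIP against 34.2, 56.9, 49.4 and 50.1 CPM in positive cells (log2 fold change 1.56, SE 0.31, edgeR adjusted p = 0.00588). Mt2 had 1.90, 1.94, 1.00 and 1.26 CPM in EV_RIP against 7.35, 5.99, 5.07 and 4.80 CPM in positive cells (1.92, SE 0.28, edgeR adjusted p = 0.00164). Neither gene overlapped between the groups. Mtf1, the zinc sensor that activates both, rose from 40.2 ± 3.94 to 57.1 ± 3.56 CPM (SD, n = 4; 0.51, edgeR adjusted p = 0.021), a call lost without EV_RIP replicate 1 or 3 or positive replicate 2 or 4 (adjusted p up to 0.0626). Of 12 listed genes tested for metallothioneins and zinc transporters 3 were higher and 2 lower (8.47% and 8.92% of all genes). Antisense gene models cover 73.5% of the exonic bases of Mt2, so its reads cannot be fully told apart from theirs.

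The promoters of both metallothionein genes are shown because they lie side by side on chromosome 8 and rose together. Capitals mark TGCNCNC, a looser form of the core of the metal response element that MTF1 is known to bind. Its first N stands for any base, where that core has A or G, so not every match is such a core. The motif was searched on both strands of the RefSeq windows of GRCm38.p6 (both genes on the plus strand, chr8:94178839-94179138 for Mt1 and chr8:94172368-94172667 for Mt2).
Mt1: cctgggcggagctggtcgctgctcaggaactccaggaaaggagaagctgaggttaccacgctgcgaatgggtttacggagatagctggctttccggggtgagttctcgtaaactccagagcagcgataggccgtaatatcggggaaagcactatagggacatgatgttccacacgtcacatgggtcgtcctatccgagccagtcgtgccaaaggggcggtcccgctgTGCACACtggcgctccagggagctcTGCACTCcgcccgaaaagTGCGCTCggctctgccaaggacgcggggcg
Mt2: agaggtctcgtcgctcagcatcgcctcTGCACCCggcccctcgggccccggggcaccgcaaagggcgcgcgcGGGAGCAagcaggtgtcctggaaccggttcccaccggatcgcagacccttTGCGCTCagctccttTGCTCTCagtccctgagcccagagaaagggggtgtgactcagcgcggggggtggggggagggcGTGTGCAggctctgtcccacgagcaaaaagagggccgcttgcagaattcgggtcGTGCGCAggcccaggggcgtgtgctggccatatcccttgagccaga
The Mt1 window holds 3 matches and the Mt2 window 6. The motif is common, since 51.0% of the 32851 windows hold at least 1 match and 7.10% hold 3 or more.

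Circadian clock genes, which run the daily transcription feedback loop, had 4 higher members (22.2%, against 8.47% of all genes) and 1 lower (5.56%, against 8.92%) among 18 tested. Ciart, a repressor of CLOCK and BMAL1, had 4.48, 6.49, 5.28 and 9.54 CPM in EV_RIP against 13.7, 29.1, 26.7 and 29.3 CPM in positive cells (log2 fold change 1.94, SE 0.38, edgeR adjusted p = 0.00594). Nr1d1, the nuclear receptor REV-ERB alpha that shuts Bmal1 off, had 50.1, 116, 66.8 and 58.3 CPM in EV_RIP against 206, 239, 284 and 275 CPM in positive cells (1.78, SE 0.38, edgeR adjusted p = 0.00853). Bhlhe41, a repressor also called DEC2, had 13.9, 20.7, 16.5 and 17.1 CPM in EV_RIP against 40.4, 48.4, 52.7 and 43.0 CPM in positive cells (1.44, SE 0.22, edgeR adjusted p = 0.00188), with 19.1% of its exonic bases shared with an antisense gene. Each of these genes was apart in the groups, and Hlf, an output factor of the clock, fell from 152 ± 52.1 to 90.9 ± 8.47 CPM (SD, n = 4; -0.74, edgeR adjusted p = 0.0218). The Hlf call was lost without EV_RIP replicate 4 or positive replicate 2, 3 or 4 (adjusted p up to 0.0676). In the unsorted experiment Nr1d1 rose by 1.25 (edgeR adjusted p = 0.0197), and Ciart and Bhlhe41 had log2 fold changes of 0.27 and 0.42 (edgeR adjusted p = 0.527 and 0.074). Time of day at harvest is not given in the labels and was not tested.

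The promoter of Ciart is shown for the canonical E box CACGTG, its capitals, to which CLOCK and BMAL1 are known to bind (RefSeq window of GRCm38.p6, minus strand, chr3:95882179-95882478, printed 5′ to 3′ on the gene's strand).
Ciart: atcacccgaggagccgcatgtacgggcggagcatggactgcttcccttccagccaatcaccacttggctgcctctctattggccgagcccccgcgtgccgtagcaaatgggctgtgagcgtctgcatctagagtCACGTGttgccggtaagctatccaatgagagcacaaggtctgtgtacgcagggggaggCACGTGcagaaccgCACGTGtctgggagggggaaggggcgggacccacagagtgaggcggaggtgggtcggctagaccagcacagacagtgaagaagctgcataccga
It holds 3 matches, at -116, -58 and -44 from the gene start. Among all windows 7.15% hold at least 1 match and 0.594% hold 2 or more.

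Interferon response genes had 8 higher members and 1 lower among 17 tested (median log2 fold change 0.52), 47.1% higher against 8.47% of all genes. Cxcl10, a chemokine induced by interferon, had 0.0834, 0.118, 0.130 and 0.248 CPM in EV_RIP against 1.87, 0.680, 1.31 and 0.977 CPM in positive cells (3.07, SE 0.46, edgeR adjusted p = 0.00188). Ddx58, the RNA sensor RIG-I, had 3.21, 3.88, 3.498 and 2.11 CPM in EV_RIP against 8.49, 8.45, 7.77 and 6.64 CPM in positive cells (1.3, SE 0.21, edgeR adjusted p = 0.00266). Both were apart in the groups, and Parp14 (2.49, edgeR adjusted p = 0.00642) and the antiviral gene Rsad2 (1.25, edgeR adjusted p = 0.00552) rose as well. Ifi27 was the member that fell, from 69.97 ± 3.70 to 56.5 ± 2.86 CPM (SD, n = 4; -0.31, edgeR adjusted p = 0.0341), a call lost without any 1 library other than positive replicate 1 (adjusted p up to 0.098). Cxcl10 also rose in the unsorted cells (4.30, edgeR adjusted p = 0.0136), and Ddx58 and Rsad2 had log2 fold changes of 1.08 and 0.78 there (edgeR adjusted p = 0.107 and 0.145). Between 5 and 8 members were higher when each library of these groups was left out, fewest without positive replicate 2.

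**Figure D4:**
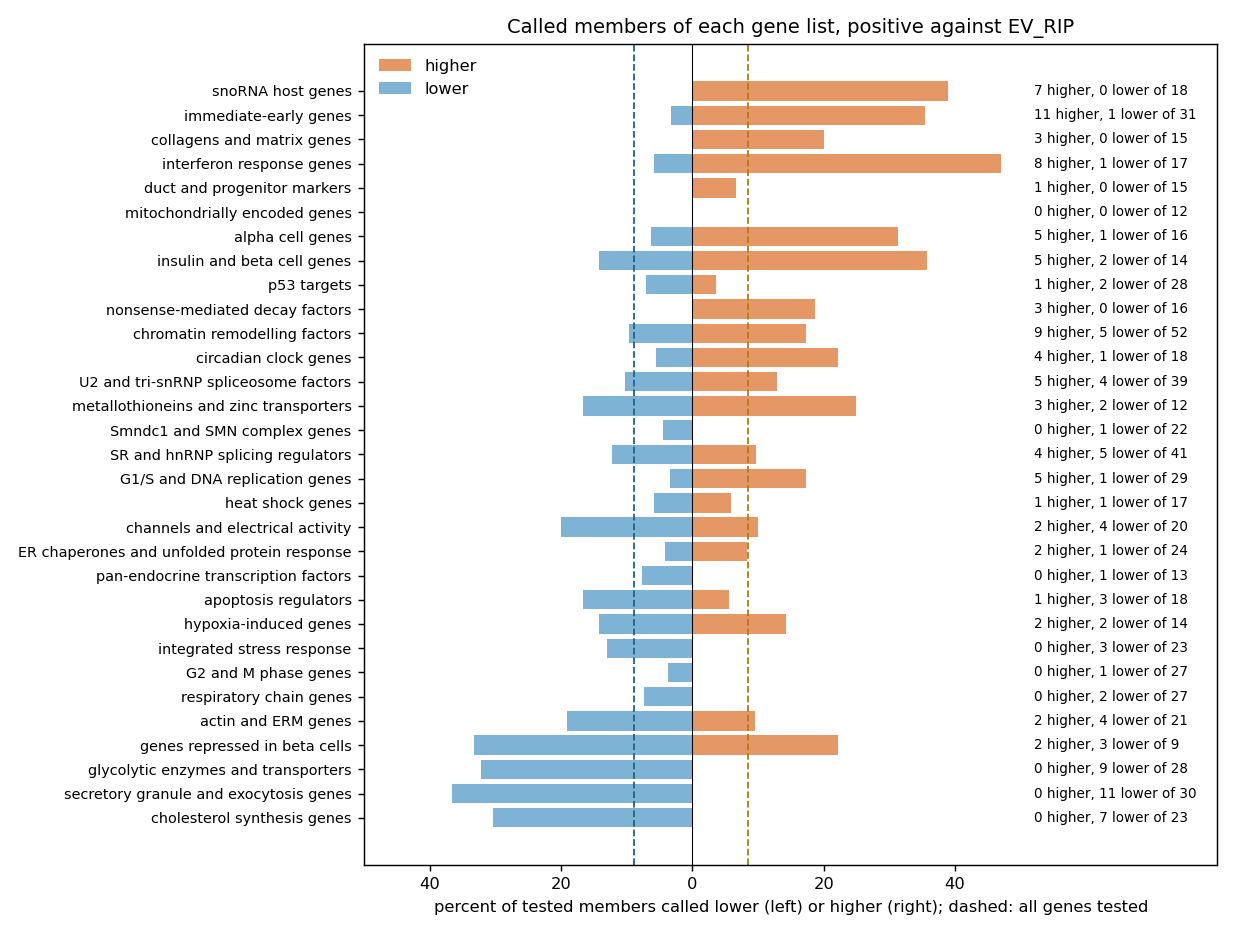
Share of the tested members of each gene list called lower (blue, to the left) or higher (orange, to the right) in positive cells, for lists with at least 9 tested members, ordered by their median log2 fold change; dashed lines mark 8.47% higher and 8.92% lower over all genes tested. Secretory granule, glycolytic and cholesterol synthesis genes reach 36.7%, 32.1% and 30.4% lower with none higher, and interferon response and snoRNA host genes 47.1% and 38.9% higher.

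Splicing factors, the molecular neighbours of SMNDC1, were called in both directions at shares near the 8.47% higher and 8.92% lower of all genes. Of 39 factors of the U2 and tri-snRNP particles 5 were higher and 4 lower (median 0.08), and of 41 SR and hnRNP regulators 4 were higher and 5 lower (median 0.04). Over the libraries left out the first list had 4 to 6 higher and 0 to 3 lower members, with none lower without EV_RIP replicate 4 or positive replicate 2. The second had 1 to 5 higher, with 1 higher without EV_RIP replicate 1 or 3 or positive replicate 2, 3 or 4, and 1 to 4 lower, fewest without positive replicate 2. Prpf8, the scaffold of the catalytic core, had 530, 571, 548 and 519 CPM in EV_RIP against 877, 868, 795 and 875 CPM in positive cells (0.66, SE 0.09, edgeR adjusted p = 0.00159). Snrnp200, the helicase that unwinds U4 from U6, rose from 243 ± 16.7 to 344 ± 9.07 CPM (SD, n = 4; 0.50, edgeR adjusted p = 0.00361), and Prpf3 from 59.8 ± 8.12 to 95.1 ± 12.5 CPM (0.67, edgeR adjusted p = 0.00752). Ptbp1, which represses neuronal and endocrine exons, had 260, 267, 234 and 284 CPM in EV_RIP against 139, 158, 154 and 203 CPM in positive cells (-0.68, SE 0.14, edgeR adjusted p = 0.0084), with 20.7% of its exonic bases shared with antisense genes. Gene counts do not show whether introns were retained or exons skipped.

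Chromatin factors had 9 higher (17.3%, against 8.47% of all genes) and 5 lower members (9.62%, against 8.92%) among 52. The higher count was 14 without EV_RIP replicate 4 and 6 without EV_RIP replicate 1 or positive replicate 2, the ends of its range. Chd3, a helicase of the NuRD complex, had 0.542, 1.17, 1.08 and 0.766 CPM in EV_RIP against 4.40, 4.63, 5.04 and 3.53 CPM in positive cells, with a wide gap (log2 fold change 2.29, SE 0.31, edgeR adjusted p = 0.00132). Smarcc1, a core BAF subunit, fell from 182 ± 10.3 to 109 ± 17.2 CPM (SD, n = 4; -0.75, edgeR adjusted p = 0.0023), and Dnmt3a, a DNA methyltransferase, from 117 ± 7.98 to 76.5 ± 10.4 CPM (-0.61, edgeR adjusted p = 0.00704). Kmt2d, a histone H3 methyltransferase, rose from 83.4 ± 9.11 to 128 ± 10.9 CPM (0.62, edgeR adjusted p = 0.00712). Atrx, a chromatin remodeller, had 133, 165, 221 and 245 CPM in EV_RIP against 158, 191, 118 and 182 CPM in positive cells, with overlapping ranges, and did not pass (-0.23, SE 0.18, edgeR adjusted p = 0.371).

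Small nucleolar RNAs, which guide the modification of ribosomal RNA and are cut from introns of host genes, formed the class of transcripts with the most one-sided calls among the 7 largest biotypes, a class picked out after its values were seen. Of 155 tested, 64 were higher (41.3%, against 8.47% of all genes) and none lower (8.92% of all genes were). A log2 fold change above 0 was seen in 144 of them (median 1.15). Their summed level was 74.3, 134, 125 and 115 CPM in EV_RIP against 143, 280, 219 and 268 CPM in positive cells, with positive replicate 1 just above the highest control. Snord37 rose from 0.0989 ± 0.0435 to 0.498 ± 0.170 CPM (SD, n = 4; 2.28, SE 0.45, edgeR adjusted p = 0.00588) and Snora64 from 1.11 ± 0.283 to 3.30 ± 1.03 CPM (1.55, SE 0.29, edgeR adjusted p = 0.00446). In negative cells, against the same controls, 34 of the 155 were higher and none lower (median 0.86), where 8.17% of all genes were called higher and 13.9% in either direction. In the unsorted experiment 1 of 125 tested was higher and 1 lower (median -0.09), where 7.22% of all genes were called higher and 7.5% lower, 14.7% together. No snoRNA passed the test of the difference between the experiments. That test called no gene of 20036 (0%), so it does not set snoRNAs apart from other genes. Single snoRNAs hold few reads, and mRNA libraries are made from poly(A) RNA, which mature snoRNAs lack.

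**Figure D5:**
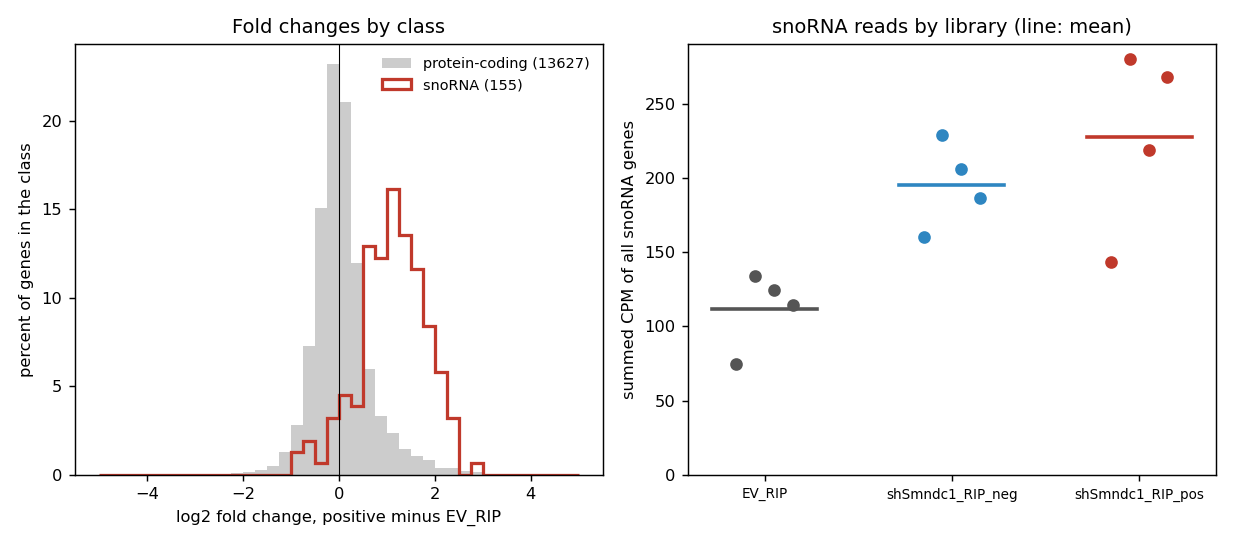
Left, the distribution of log2 fold changes of positive cells against EV_RIP for 155 snoRNA genes (red outline) and 13627 protein-coding genes (grey), as the percent of each class; right, the summed CPM of all snoRNA genes in each reporter library, with a line at the group mean. The snoRNA distribution is centred at 1.15, and the 4 positive libraries lie between 143 and 280 CPM, above the 74.3 to 134 CPM of EV_RIP.

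The host genes of snoRNAs, many of whose spliced transcripts are degraded by nonsense-mediated decay, moved the same way. Of 18 tested, 7 were higher and none lower (38.9% higher, against 8.47% of all genes, median 0.80). Zfas1 had 14.6, 27.8, 21.7 and 20.9 CPM in EV_RIP against 35.2, 61.6, 60.3 and 70.1 CPM in positive cells (1.42, SE 0.28, edgeR adjusted p = 0.00651). Snhg12 rose from 12.5 ± 3.47 to 35.7 ± 8.86 CPM (SD, n = 4; 1.51, edgeR adjusted p = 0.0065) and Snhg8 from 13.8 ± 0.866 to 23.3 ± 5.79 CPM (0.76, edgeR adjusted p = 0.013). These 3 genes share 15.7%, 19.6% and 15.2% of their exonic bases with other genes on the same strand, snoRNA genes among them. Factors of nonsense-mediated decay had 3 higher members of 16 (18.8%, against 8.47% of all genes), a count of 5 without EV_RIP replicate 2, 1 without EV_RIP replicate 1 or 3 and 0 without positive replicate 2 or 4. Among them Upf2 and Smg8 had log2 fold changes of 0.56 and 0.55 (edgeR adjusted p = 0.0187 and 0.0345). Upf2 lost its call without positive replicate 2 or 4, and Smg8 without EV_RIP replicate 1, 3 or 4 or positive replicate 2 or 4 (adjusted p up to 0.0614 and 0.0938). The host gene count was 3 to 10 over the libraries left out, lowest without EV_RIP replicate 1.

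The lists for stress, the cell cycle and apoptosis are read against 8.47% higher and 8.92% lower over all genes. The integrated stress response, an ATF4 programme, had 3 lower and no higher members of 23: Shmt2 (-1.02, edgeR adjusted p = 0.0126), Psat1 (-0.93, edgeR adjusted p = 0.00893) and Slc7a5 (-0.78, edgeR adjusted p = 0.0286), which make serine and glycine or import amino acids. Its lower count was 2 to 7 over the libraries left out, 7 without EV_RIP replicate 2, 5 without positive replicate 1 and 2 without any other. Of 28 p53 targets 1 was higher (Gadd45b, 1.29, edgeR adjusted p = 0.0329) and 2 were lower, and of 27 genes of the G2 and M phases 1 was lower (Ccnb2, -0.86, edgeR adjusted p = 0.0129). Genes of G1/S and DNA replication had 5 higher and 1 lower member of 29, with Slbp (0.54, edgeR adjusted p = 0.00777) and Mcm4 (0.51, edgeR adjusted p = 0.00861) among the higher. The higher count was 2 without EV_RIP replicate 1 or 3 or positive replicate 2 or 3. No p53 target was called without EV_RIP replicate 1, 3 or 4 or positive replicate 2, 3 or 4. Of 18 apoptosis regulators Bak1, a pore-forming effector, was the 1 higher, from 21.6 ± 5.34 to 49.5 ± 5.12 CPM (SD, n = 4; 1.20, edgeR adjusted p = 0.0013), with 25.5% of its exonic bases shared with an antisense gene, and 3 were lower, a count of 0 to 2 over the libraries left out (0 without EV_RIP replicate 1 or positive replicate 2). Slc7a5 and Gadd45b lost their calls without EV_RIP replicate 1, 3 or 4 or positive replicate 2, 3 or 4 (adjusted p up to 0.0944 and 0.0891).

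Further lists are given by their counts, again against 8.47% higher and 8.92% lower over all genes. Chaperones of the endoplasmic reticulum had 2 higher and 1 lower of 24, heat shock genes 1 and 1 of 17, hypoxia-induced genes 2 and 2 of 14, channels 2 and 4 of 20, collagens and matrix genes 3 and 0 of 15, actin and ERM genes 2 and 4 of 21, respiratory chain genes 0 and 2 of 27, and genes repressed in beta cells 2 and 3 of 9. These small counts moved with single libraries: over the libraries left out, collagens and matrix genes had 1 to 4 higher (1 without positive replicate 2, and 0 without the 4 libraries of low mitochondrial share or high Rn7sk), channels 0 to 2 higher and 1 to 5 lower (0 higher without EV_RIP replicate 1 or positive replicate 1 or 2), and chaperones 0 to 2 in either direction (none without EV_RIP replicate 1 or 3 or positive replicate 2). The 12 mitochondrially encoded genes gave no call in edgeR. Among the channels, Gjd2, which encodes the gap junction protein connexin that couples islet cells, fell from 107 ± 42.6 to 38.4 ± 16.7 CPM (SD, n = 4; -1.48, edgeR adjusted p = 0.0167), and lost its call without positive replicate 2 (adjusted p up to 0.0559). Kcnma1, a calcium-activated potassium channel, fell from 12.6 ± 2.72 to 6.81 ± 1.63 CPM (-0.89, edgeR adjusted p = 0.0116).

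Positive and negative cells had the same shRNA and were split by the reporter, so the insulin transcripts in this contrast were bound up with the sort. In the fit without a pairing term no gene of 18897 passed in edgeR (0%; 998 higher and 1316 lower at an unadjusted p under 0.05). Same-numbered positive and negative libraries deviated together. With replicate number as a block 22 genes were higher (0.116%) and 56 lower (0.413% in all), while DESeq2 without the block called 110 and 205. The edgeR block fit also held the EV_RIP libraries, although their numbers pair with those of positive cells only as numbers. Correlations of same-numbered positive and EV_RIP libraries were 0.19, 0.53, -0.12 and -0.06. Smndc1 had 23.9, 43.4, 36.3 and 44.6 CPM in negative cells, and positive cells were lower than their own partner in 4 of 4 pairs (log2 difference -0.87, edgeR adjusted p = 0.0346 with the block). The fractions therefore differed in the level of the targeted gene as well as in the reporter, and the parts of these differences cannot be told apart. Negative cells had 5.13, 2.33, 1.92 and 1.59 CPM of Ins2, below the paired positive library each time (1.92, edgeR adjusted p = 0.0438 with the block). Gcg (0.79), Spp1 (1.59) and Egr1 (1.02) did not pass (edgeR adjusted p = 0.0596, 0.087 and 0.0908 with the block). A block fit of only the 8 sorted libraries, added after the data were seen, called 667 higher and 850 lower of 17994 genes (8.43%), with these 3 genes past the threshold (edgeR adjusted p = 0.00223, 0.000304 and 0.00646). Negative libraries 2, 3 and 4 held 18.6 to 161 CPM of Rn7sk against at most 4.68 CPM in positive cells, and the part of that difference was not tested.

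Several genes passed the paired contrast, and of these Vstm2l, Clu and Ptbp1 were not far from the control in negative cells. Vstm2l, a secreted immunoglobulin-domain protein gene, had 3.06, 2.99, 3.00 and 2.15 CPM in EV_RIP libraries, 9.75, 8.68, 10.8 and 5.14 CPM in positive cells and 3.10 ± 0.936 CPM (SD, n = 4) in negative cells (positive minus negative 1.44, edgeR adjusted p = 0.0286 with the block). Clu, which encodes the secreted chaperone clusterin, had 48.5, 39.7, 42.6 and 45.5 CPM in EV_RIP libraries, 27.9, 23.3, 26.8 and 21.98 CPM in positive cells and 45.6 ± 8.02 CPM in negative cells (-0.86, edgeR adjusted p = 0.0371 with the block). Ptbp1 stood at 270 ± 47.6 CPM in negative cells (-0.72, edgeR adjusted p = 0.0438 with the block). Msn stood at 192 ± 31.6 CPM in negative cells, between the other groups (-1.10, edgeR adjusted p = 0.0286 with the block). Lonp1, Akap6, Tmem63b and Fbxl16 were also lower in positive than in negative cells (-0.57, -0.90, -0.55 and -0.60, edgeR adjusted p = 0.0438, 0.0346, 0.0438 and 0.0438 with the block), and so were Vegfa (-0.86, 0.0286) and Zmat3 (-0.82, 0.0483).

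Against the unsorted knockdown, which was compared with separate controls, the changes of positive cells could be read a second time. Of 17891 genes tested in both experiments, 3169 were called in positive cells and 2612 in unsorted cells, and 1473 were called in both, 46.5% of the first list and 56.4% of the second. All 1473 had the same direction. On the log2 scale Ins2 rose in unsorted cells by 3.21 (edgeR adjusted p = 0.0075), Spp1 by 1.87 (0.0088), and Mafa by 1.35 (0.0185), and Msn fell by 2.36 (0.00891). Gcg had a log2 fold change of 0.58 there and did not pass (edgeR adjusted p = 0.136), and the difference from positive cells, 0.24 (SE 0.31), did not pass either (edgeR adjusted p = 0.998). The test of the difference between the 2 effects called no gene of 20036 in edgeR (0%; 443 and 418 at an unadjusted p under 0.05), and DESeq2 called 2 higher and 1 lower. Among genes with a mean of at least 5 CPM in a reporter group and no predicted symbol, Eno3, the muscle enolase, had the smallest p (difference -1.59, SE 0.32, edgeR adjusted p = 0.789).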

How the data were processed

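Poly(A) RNA libraries (TruSeq Stranded mRNA, 75-base paired ends, per the labels' protocols) were deposited by the authors as raw counts per Ensembl gene, 1 column a library. The authors also deposited FPKM. Between libraries, the ratio of FPKM to counts followed the inverse DESeq2 size factors (largest relative difference 6.66e-16 over 14258 genes). The gene lengths behind the FPKM were not checked. STAR 2.7.5a, Picard 2.19.2, DESeq2 1.30.0 and GRCm38/mm10 are named in the submitters' processing notes. Which program counted the reads, and with which strand setting, was not given in the sources used here, so the named genes with over 10% of their exonic bases shared with another gene are marked.

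Counts were tested with edgeR 4.0.16 (R 4.3.3): TMM scaling, filterByExpr, a quasi-likelihood fit of all 12 reporter libraries, Benjamini-Hochberg adjustment at 0.05 over 18897 of 55487 genes. SEs are the log2 fold change over the square root of F, and CPM use the TMM-scaled totals. On simulated data the fit recovered 74.1% of 85 genes changed by 1 on the log2 scale. It recovered 98.3% of 115 genes changed by 2, with 6 false calls. Whether these rates hold for the deposited libraries, or for genes of low counts, was not tested. Libraries of a group were not duplicates (chi-square per degree of freedom 24.4 or more). Same-numbered positive and negative libraries deviated together (correlations 0.75, 0.50, 0.27 and 0.54 over 10496 genes), so they were taken as pairs.

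Members and gene lists were chosen with earlier results of these data known. Genes were named by a rule: Smndc1, Ins1, Ins2, Iapp, Gcg, Spp1, Egr1, Atrx, Pdx1 and Mafa, the 15 largest changes in each direction among called genes without overlap and with at least 5 CPM in the higher group, up to 4 members per list, and the smallest p in the other contrasts. Irx1, Irx2, Pax6, Isl1, Neurod1, Nkx6-1, Sstr2, Fosl2, Ifi27, Scg2, Sox9 and the snoRNAs were chosen after their values were seen. DESeq2 1.42.0, other scalings, no filter, the replicate block and leaving out libraries were tried as alternatives. Promoters and motif counts came from RefSeq windows of GRCm38.p6. Predicted gene models were not named. Some listed genes are not reported here.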

Additional observations from a re-analysis of the deposited data

Results flagged for a closer look

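Among 238 groups of 4 libraries examined over the named genes, 20 held a library whose gap to the nearest of the others exceeded Dixon's 95% critical value, where chance flags about 5%. In EV_RIP, replicate 4 stood above the other 3 libraries for Fbxl16 (145 CPM), Gjd2 (171 CPM), Gpr142 (16.9 CPM), Isl1 (352 CPM), Lsamp (38.9 CPM) and Prlr (245 CPM), and below them for Vstm2l (2.15 CPM). Replicate 3 stood high for Dnmt3a (129 CPM), and replicate 2 for Esam (0.314 CPM) and Nkx6-1 (72.2 CPM).

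In positive cells, replicate 1 stood above its group for Arsb (55.3 CPM), Cadps (38.6 CPM), Gjd2 (63.3 CPM), Scg5 (109 CPM), Slc30a8 (265 CPM) and Snrnp200 (357 CPM), and below it for Foxa2 (25.8 CPM). For Arsb, Cadps, Gjd2, Scg5 and Slc30a8, which all fell, this put replicate 1 nearest to the control. Replicate 4 stood high for Pgam1 (112 CPM), replicate 3 low for Prpf8 (795 CPM) and replicate 2 low for Fosl2 (99.0 CPM).

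Positive and negative cells, both with the shRNA, differed for 15 named genes by edgeR's test with the replicate number as a block. Over all 18897 genes this test called 78 (0.413%). Clu, Tmem63b, Akap6, Lonp1, Msn, Vstm2l, Zmat3, Ppp2r2b, Fbxl16 and Vegfa were named for their small p in this contrast without the block. The count of 15 is therefore set in part by the naming. The block fit also held the EV_RIP libraries. The cells were split by insulin promoter activity and differed in Smndc1, so this compares the sorted fractions, and the Ins2 value is bound up with the sort. The log2 difference was above 0 for Ins2 (1.92), Vstm2l (1.44) and Pianp (1.05). It was below 0 for Ppp2r2b (-1.42), Msn (-1.10), Akap6 (-0.90), Smndc1 (-0.87), Clu (-0.86), Vegfa (-0.86), Zmat3 (-0.82), Ptbp1 (-0.72), Igfbp4 (-0.71), Fbxl16 (-0.60), Lonp1 (-0.57) and Tmem63b (-0.55). Without the block, none of them passed. For Vegfa the comparison of positive cells with EV_RIP (-0.50, edgeR adjusted p = 0.0491) lost its call without EV_RIP replicate 1, 3 or 4 or positive replicate 1, 2 or 3, and under 2 other scalings (adjusted p up to 0.144).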

How the results depend on the processing

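The calls of positive cells against EV_RIP stayed within 1.5 times of 1600 higher and 1686 lower under DESeq2 (2328 and 2147), DESeq2 size factors (1695 and 1623), upper-quartile scaling (1891 and 1420), no filter (1414 and 1940) and the 8 libraries alone (1729 and 1695). Leaving out single libraries gave 646 to 1811 higher and 612 to 1775 lower genes. Without the 4 libraries of low mitochondrial share or high Rn7sk (EV_RIP replicate 1 among them), chosen after seeing the data, there were 832 and 959. The replicate block gave 2508 and 2571, although numbers pair these groups only as numbers (correlations 0.19, 0.53, -0.12 and -0.06), and 1 of 4 positive libraries correlated best with its own number. The median over all genes was 0.0141 with DESeq2 size factors, 0.0438 with upper-quartile scaling and -0.0492 without the filter. Of 100 called genes named, 2 to 22 lost their call when 1 library of either group was left out, most without positive replicate 2, and 0 to 3 under the tools, scalings, filter and block; without the 4 libraries named above 8 did (Fev, Foxa2, Upf2, Slc7a5, Col1a1, Esam, Fosl2 and Ifi27); none reversed. A further 3 uncalled genes changed sign: Sox9 (0.00962 with upper-quartile scaling, 0.0547 with the replicate block, 0.106 with the block on 8 libraries, -0.224 to 0.407 without single libraries), Scg2 (-0.0243 without the filter, -0.0334 to 0.0947 without single libraries) and Isl1 (-0.131 to 0.0179 without single libraries). Positive against negative cells gave 0 calls in edgeR, 22 higher and 56 lower with the replicate block, 667 and 850 with the block on the 8 sorted libraries, 110 and 205 in DESeq2, 39 and 111 without the filter, and 0 to 220 higher and 0 to 297 lower without single libraries, highest without negative replicate 1. The difference from the unsorted effect gave 0 calls in edgeR, 2 and 1 in DESeq2, and 4 and 1 without the filter. The causes were not tested. Depth limits genes near 0: a count of 0 allows up to 3 counts, 0.0294 to 0.0625 CPM in EV_RIP, for counting error only.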
